A study of Mus musculus with 4 samples.

Results

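The genes described here are the receptors that bind bone morphogenetic proteins (BMPs) and the Smad proteins that carry their signal to the nucleus: Bmpr1a, Bmpr1b, Bmpr2, Acvr1, Acvr2a, Acvr2b, Smad1, Smad4, Smad5 and the co-receptor gene Rgmb. They were taken by name from the platform annotation of an Affymetrix mouse array. Of the 45141 probe sets on it, 24 were annotated to 1 of these 10 genes, and a further 2 listed Acvr2a together with Orc4 and were assigned to neither. The 4 arrays held RNA of organoids, 3D epithelial cultures grown here from mouse colon adenomas, on a C57BL/6 background. In the first group, labelled Gata6 null/Apc null, Cre recombinase had been used against floxed alleles of Gata6 and Apc (VillinCreERT2 Gata6 fl/fl Apc fl/fl). In the second group, labelled Apc null, Gata6 was wild type (VillinCreERT2 Gata6 +/+ Apc fl/fl). The Cre is tamoxifen-inducible and driven by the Villin promoter, so it acts in intestinal epithelial cells, and both groups had lost Apc, the brake on Wnt signalling, per the labels. Each group had 2 arrays, 1 from the batch that the labels call A and 1 from batch B. Culture lasted 7 days, in medium with 50 ng/ml EGF, with a Rock inhibitor at 10 µM when passaged. The labels do not say how many mice the cultures came from.

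BMPs are secreted dimers that bring together type I and type II receptors, both of which are serine/threonine kinases. The type II receptor phosphorylates the type I receptor, which then phosphorylates Smad1, Smad5 or Smad9; these join the common partner Smad4 and regulate genes in the nucleus. In the gut epithelium the pathway is known for restraining crypt stem cells, and in humans inherited loss of BMPR1A or SMAD4 causes juvenile polyposis. The comparison of the groups addresses whether the loss of GATA6, a gut transcription factor with zinc fingers, alters BMP gene expression in adenoma cells.

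Since GATA6 binds DNA at GATA letters, the promoters of the members were searched for them in RefSeq windows of mouse build GRCm38.p6, each with 250 bases before and 50 after a transcript start. Windows were found for 9 of the 10 genes, 15 in all. The letters GATA, on either strand, were in 6 of the 15, against 57.91% of all 32851 windows. A longer motif, GATA with A or T before it and A or G after it on either strand, was in 1 of the 15, against 29.76% of all windows. The windows of Acvr1 and Acvr2a, at 83.67% and 80.33% G and C, held no GATA. Nor did those of Bmpr1b, at 48.33% to 55.67% G and C. Shown first are the 250 bases before the outermost listed start of Smad1 (chr8:79399429-79399678, minus strand) and Rgmb (chr17:15831247-15831496, minus strand), the 2 genes with the largest differences between the groups. Then follow the 30 bases with the longer match, in the window of the third listed start of Smad5 (chr13:56703418-56703447, plus strand). Capitals mark GATA in Rgmb and the longer motif in Smad5, and the Smad1 stretch has none.
Smad1: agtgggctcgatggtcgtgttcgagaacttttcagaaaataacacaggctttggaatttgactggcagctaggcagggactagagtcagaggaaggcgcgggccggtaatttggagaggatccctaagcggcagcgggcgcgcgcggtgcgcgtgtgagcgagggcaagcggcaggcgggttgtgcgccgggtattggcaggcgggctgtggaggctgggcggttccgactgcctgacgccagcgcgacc
Rgmb: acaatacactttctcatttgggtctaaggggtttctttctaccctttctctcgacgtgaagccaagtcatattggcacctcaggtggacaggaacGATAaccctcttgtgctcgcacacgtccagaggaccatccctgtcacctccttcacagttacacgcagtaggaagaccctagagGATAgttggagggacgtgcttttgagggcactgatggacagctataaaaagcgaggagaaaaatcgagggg
Smad5: tctgggAGATAAggatccgcgcttatcggt
A match or its absence in these windows is a description of the letters and says nothing about where GATA6 binds.

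No receptor or transducing Smad passed the test between the genotypes, and Smad1 alone passed in the fit with the batch letter as a replicate block. Of the 10 genes, 8 were above the level of 4.45 log2 units (the 40th percentile of all probe sets) that a gene needed to be tested. With an adjusted p of 0.05 as the threshold in limma, 0 of the 8 were called, where 0.648% of all 11874 genes tested were. Before adjustment, 2 of the 8, Smad1 and Rgmb, had a p under 0.05, as had 946 of all genes. With the batch letter as a replicate block, 1 of the 8 was called, Smad1, as higher in arrays labelled Gata6 null/Apc null, where 6.88% of all genes were called. With every probe set fitted on its own, 0 of the 24 were called against 0.129% of all probe sets, and 1 of the 24 with the block against 3.24%. The differences of the 8 genes ran from -0.68 to 0.99 with a median of 0.11, against a median of -0.03 over all genes tested. All differences are in log2 units and positive where the group labelled Gata6 null/Apc null was higher.

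The groups did not overlap at 13 of the 24 probe sets. In 5 of these both Gata6 null/Apc null values lay above both Apc null values, as at 12.5% of all probe sets, and in 8 they lay below, as at 16.1% of all. Probe sets of a gene read the same RNA, and the 13 belonged to Acvr1, Bmpr1a, Bmpr2, Rgmb, Smad1 and 1 of the 3 probe sets of Acvr2b. Among the 8 genes tested, each at its brightest probe set, the groups did not overlap for 4, against 32.0% of all genes tested. In these bulk samples, fewer cells that express a gene and less of its RNA per cell cannot be told apart.

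**Figure D1:**
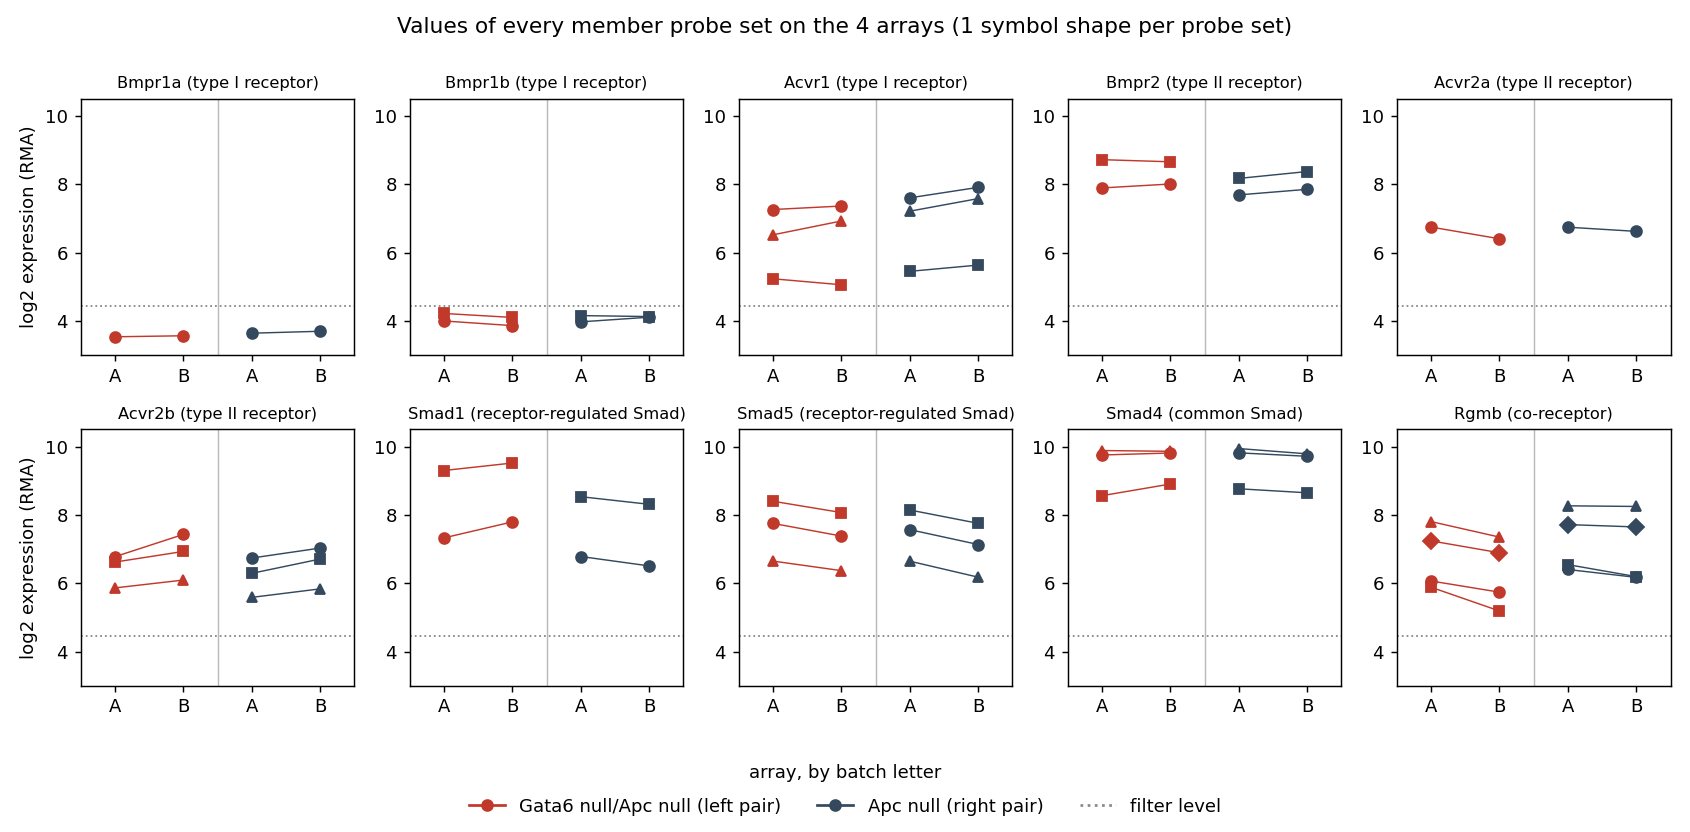
Log2 expression of every probe set of the 10 genes on the 4 arrays, Gata6 null/Apc null at the left of each panel and Apc null at the right, with a symbol shape for each probe set, a line joining the batches of a group and a dotted line at the level of 4.45 needed for the test. Both Smad1 probe sets sit higher and all 4 Rgmb probe sets lower in the Gata6 null/Apc null arrays, while Smad4 is level and Bmpr1a and Bmpr1b lie under the dotted line.

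Smad1, which is phosphorylated by activated BMP type I receptors, had the largest difference of the 10 genes. Its brighter probe set (1448208_PM_at) read 9.30 and 9.52 in batches A and B of the group labelled Gata6 null/Apc null, against 8.53 and 8.31 in those labelled Apc null. The group means were 9.41 ± 0.15 and 8.42 ± 0.16 (SD, n = 2 each). The values of the groups did not overlap, and the lowest Gata6 null/Apc null value was 0.77 above the Apc null value of its own batch. The difference was 0.99 (SE 0.20, 95% interval 0.46 to 1.51), a 1.98-fold difference, with an adjusted p of 0.206. With the block the interval was narrower, 0.63 to 1.34, and the adjusted p was 0.0155. At this probe set the mean difference between batches (B minus A) was only -0.0022. The fit with the block also had more prior degrees of freedom from the variance of all genes, 4.99 against 2.83 with genotype alone. The part of either in the narrower interval was not tested. Smad1 was higher by 0.77 (batch A) and 1.21 (batch B).

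The other Smad1 probe set (1416081_PM_at) read 7.33 and 7.79 in arrays labelled Gata6 null/Apc null, against 6.78 and 6.51 in those labelled Apc null. It moved in the same direction with a similar size, 0.92 (SE 0.29), but did not pass in the fit of all probe sets without the block (adjusted p = 0.802) or with it (0.0811). The block call of the brighter probe set was lost without a mean-variance trend (adjusted p = 0.0628) and held with the mean of both probe sets (0.0395), with no filter (0.00536) and with every probe set in the fit (0.0106). Without the block, leaving out any of the 4 arrays gave a difference of 0.88 to 1.10 and an adjusted p of 0.412 to 0.620.

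Smad5, the closest relative of Smad1 with the same place in the pathway, had smaller differences that did not pass. Its brightest probe set (1433641_PM_at) read 8.40 and 8.07 in arrays labelled Gata6 null/Apc null, against 8.14 and 7.75 in those labelled Apc null. Within each batch the Gata6 null/Apc null value was the higher, by 0.26 (batch A) and 0.32 (batch B), yet the groups overlapped because both genotypes were lower in batch B. The difference was 0.29 (SE 0.26, 95% interval -0.40 to 0.97, adjusted p = 1.00), and with the block the interval was -0.05 to 0.63 (adjusted p = 0.335). The other Smad5 probe sets differed by 0.22 and 0.10. Whether Smad1 and Smad5 differ in their response was not tested.

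Smad4, the partner shared by BMP and TGF-beta signalling, was the most even of the 10 genes between the genotypes. Its brightest probe set (1422487_PM_at) read 9.88 and 9.86 in arrays labelled Gata6 null/Apc null, against 9.94 and 9.79 in those labelled Apc null. The difference was 0.01 (SE 0.14, 95% interval -0.36 to 0.38). With the block the interval was -0.22 to 0.23. The other 2 probe sets differed by 0.02 and 0.03, and at all 3 the sign was negative in batch A and positive in batch B.

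The type I receptors fell into 1 gene with a readable signal, Acvr1, and 2 near the floor of the array. Acvr1, the activin-like receptor ALK2 that binds BMP6 and BMP7 with the type II receptors, read lower in arrays labelled Gata6 null/Apc null at all 3 probe sets. The brightest (1416786_PM_at) read 7.27 and 7.37 in arrays labelled Gata6 null/Apc null, against 7.61 and 7.91 in those labelled Apc null. Its difference was -0.44 (SE 0.25, 95% interval -1.08 to 0.19, adjusted p = 0.895) and did not pass with the block (interval -0.84 to -0.05, adjusted p = 0.203). The probe set with the largest Acvr1 difference (1448460_PM_at) read 6.52 and 6.93 in arrays labelled Gata6 null/Apc null, against 7.22 and 7.58 in those labelled Apc null. That difference was -0.67, with -0.69 (batch A) and -0.66 (batch B), and its adjusted p with the block was 0.108 in the fit of all probe sets. The third probe set (1416787_PM_at) differed by -0.40. At none of the 3 did the groups overlap.

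Bmpr1a, the type I receptor ALK3 through which BMPs act on the crypt epithelium, was represented by a single dim probe set (1445413_PM_at). It read 3.54 and 3.57 in arrays labelled Gata6 null/Apc null, against 3.65 and 3.70 in those labelled Apc null. All 4 values were under the level of 4.45. The difference of -0.12 (95% interval -0.34 to 0.10) is between values near the array floor and does not measure the gene. Bmpr1b, the type I receptor ALK6, read 3.87 to 4.22 at its 2 probe sets in arrays labelled Gata6 null/Apc null, against 3.98 to 4.16 in those labelled Apc null. Its differences were -0.11 and 0.02, again at the floor. The principal type I receptor of the pathway in epithelium was therefore not measured by a bright probe set here.

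The type II receptors did not pass in either fit. Bmpr2, the type II receptor dedicated to BMPs, had the largest difference among them. Its brighter probe set (1434310_PM_at) read 8.72 and 8.66 in arrays labelled Gata6 null/Apc null, against 8.18 and 8.38 in those labelled Apc null. The groups did not overlap, and the difference was 0.42 (SE 0.20, 95% interval -0.11 to 0.95, adjusted p = 0.818), with 0.55 (batch A) and 0.28 (batch B). With the block the interval was 0.08 to 0.75 and the adjusted p 0.158. The other Bmpr2 probe set (1419616_PM_at) read 7.90 and 8.01 in arrays labelled Gata6 null/Apc null, against 7.69 and 7.86 in those labelled Apc null, a difference of 0.18.

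Acvr2b, which serves both activins and BMPs, varied more between batches than between genotypes at 2 of its 3 probe sets. Its brightest probe set (1419140_PM_at) read 6.77 and 7.43 in arrays labelled Gata6 null/Apc null, against 6.74 and 7.03 in those labelled Apc null. The groups overlapped, and the difference of 0.22 (SE 0.32, 95% interval -0.62 to 1.06) came to 0.04 (batch A) and 0.40 (batch B). The other 2 probe sets differed by 0.28 and 0.27, with the same sign in both batches.

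Acvr2a, the other activin and BMP type II receptor, read 6.75 and 6.41 in arrays labelled Gata6 null/Apc null, against 6.75 and 6.63 in those labelled Apc null, at its only unshared probe set (1437382_PM_at). The batch A values were level, and the difference was -0.11 (SE 0.25, 95% interval -0.76 to 0.55). Of the 2 probe sets shared with Orc4, the brighter read 7.03 and 6.67 in arrays labelled Gata6 null/Apc null, against 7.06 and 7.12 in those labelled Apc null.

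Rgmb, a membrane-anchored repulsive guidance molecule that binds BMPs and acts as their co-receptor, read lower in arrays labelled Gata6 null/Apc null at all 4 of its probe sets and in both batches. The brightest (1433586_PM_at) read 7.80 and 7.35 in arrays labelled Gata6 null/Apc null, against 8.26 and 8.25 in those labelled Apc null. The groups did not overlap at any of the 4 probe sets, and the batch B array labelled Gata6 null/Apc null was the lowest of the 4 at each. The difference was -0.68 (SE 0.26, 95% interval -1.35 to -0.01), or 0.625 times the level in the Apc null arrays, with an adjusted p of 0.617. It was -0.46 (batch A) and -0.90 (batch B). With the block the interval was -1.09 to -0.26 and the adjusted p 0.0801, so Rgmb missed the threshold there too. It passed in 1 of the settings tried, the block with array medians subtracted (adjusted p = 0.0379).

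The remaining Rgmb probe sets gave a like picture. The probe set 1433587_PM_at read 7.24 and 6.89 in arrays labelled Gata6 null/Apc null, against 7.72 and 7.65 in those labelled Apc null, a difference of -0.62. The dimmer 1428430_PM_at read 5.88 and 5.19 in arrays labelled Gata6 null/Apc null, against 6.54 and 6.19 in those labelled Apc null, a difference of -0.83. The last, 1428429_PM_at, differed by -0.38. With the block their adjusted p-values in the fit of all probe sets were 0.141, 0.0952 and 0.522.

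**Figure D2:**
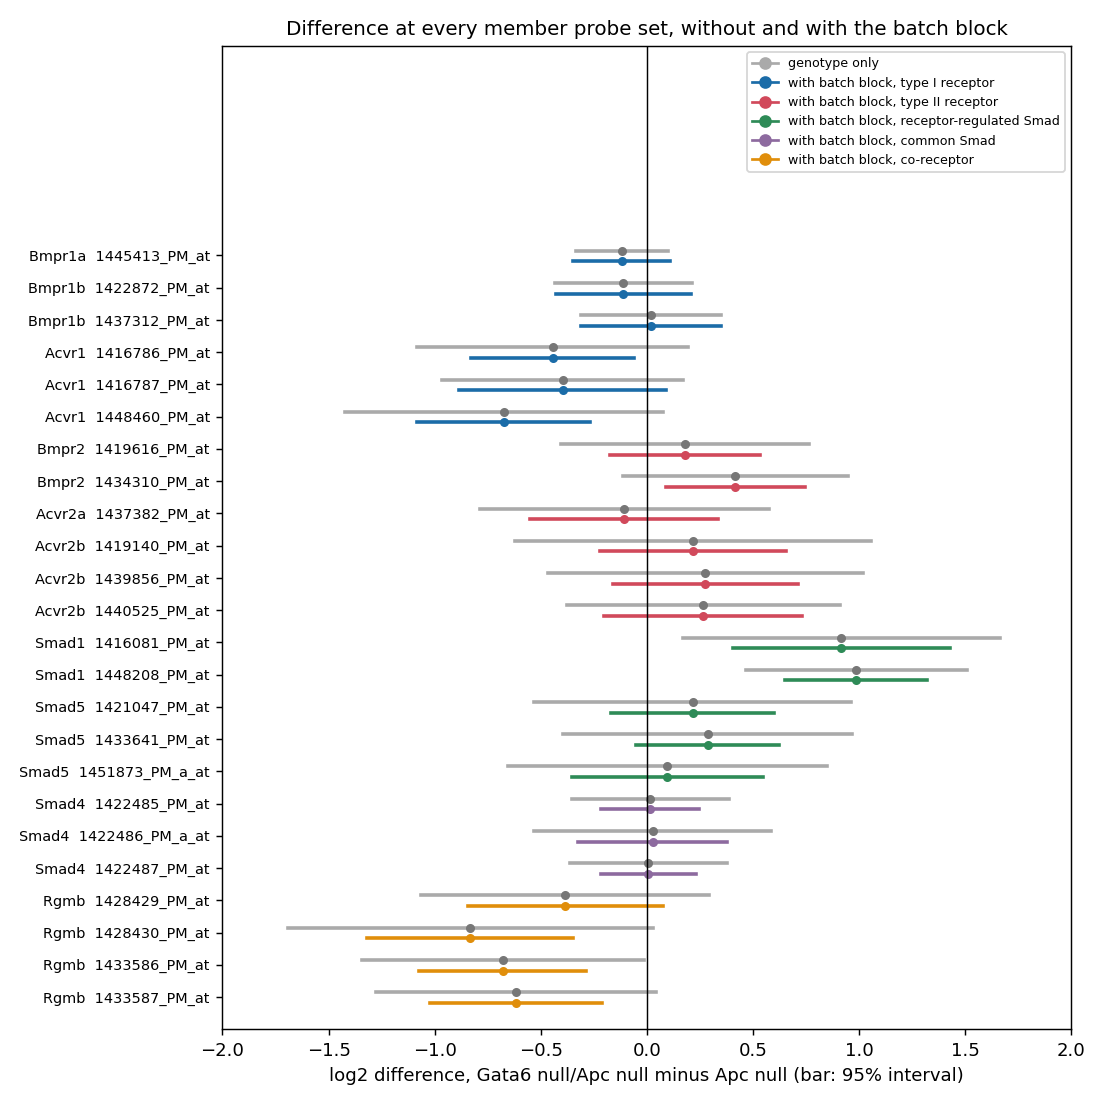
Log2 difference (Gata6 null/Apc null minus Apc null) with its 95% interval at each of the 24 probe sets, in grey from the fit with genotype alone and in colour, by role in the pathway, from the fit with the batch as a block. The Smad1 intervals lie above 0 in both fits. With the block those of 3 of the 4 Rgmb probe sets lie below 0, and that of 1433586_PM_at does so without it too. With the block alone, those of Acvr1 1416786_PM_at and 1448460_PM_at lie below 0 and that of Bmpr2 1434310_PM_at above 0. Those of Smad4 are centred at 0.01 to 0.03.

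The batch letters moved several of these genes as much as the genotype labels. At 10 of the 24 probe sets the mean difference between batches was larger than that between genotypes. This held at every probe set of Acvr2a, Smad4 and Smad5, and its share over all probe sets was not computed. For Smad4 both differences were small, with mean batch differences of -0.02, 0.11 and -0.09. The brightest Smad5 probe set was lower in batch B than in batch A by 0.33 in arrays labelled Gata6 null/Apc null (B minus A, -0.33) and by 0.39 in those labelled Apc null (-0.39). Acvr2b went the other way, with B minus A of 0.65 in arrays labelled Gata6 null/Apc null, against 0.29 in those labelled Apc null. The batch difference had the same sign in both genotypes at 17 of the 24 probe sets. Smad1 was among the exceptions, with B minus A of 0.22 in arrays labelled Gata6 null/Apc null, against -0.22 in those labelled Apc null. The genotype difference had the same sign in both batches at 18 of the 24 probe sets, and for 6 of the 8 genes tested, against 63.37% of all genes tested.

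**Figure D3:**
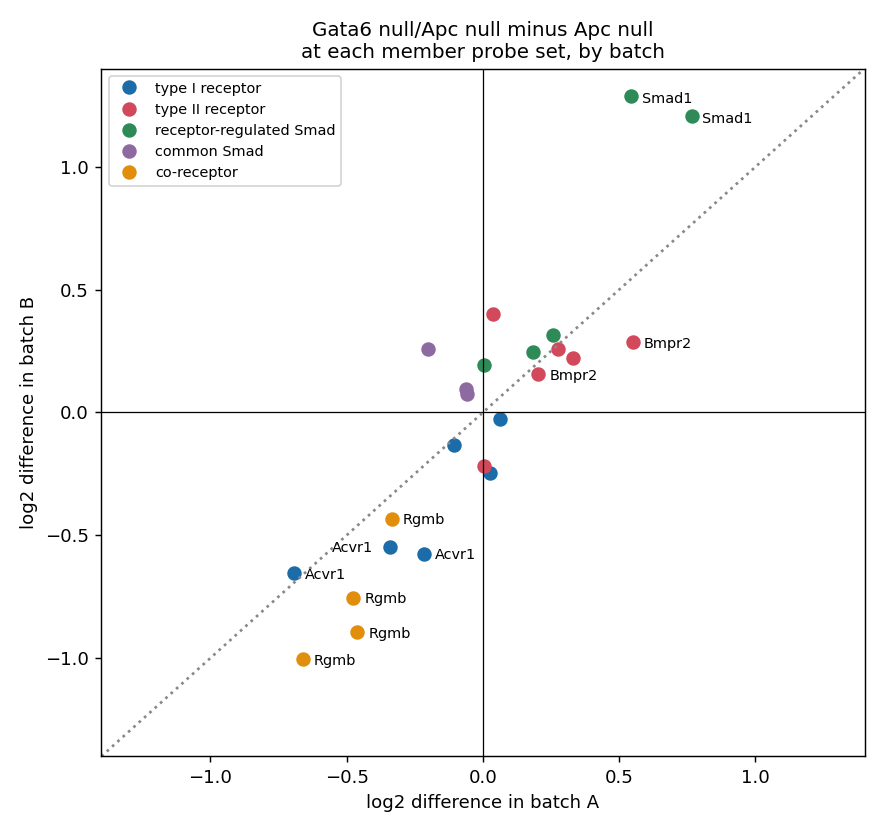
Log2 difference between the genotypes (Gata6 null/Apc null minus Apc null) in batch A on the horizontal axis and in batch B on the vertical axis, a point for each of the 24 probe sets, coloured by role, with a dotted line where both batches are equal. Smad1, Bmpr2, Acvr2b and Smad5 lie in the upper right, Acvr1, Rgmb and Bmpr1a in the lower left, and the Smad4 points have opposite signs in the 2 batches.

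The rest of the pathway was described with 8 lists of genes, of which 71 genes in all were tested besides the members. Without the block 1 of the 71 was called and with it 11 were called as higher and 1 as lower, read against 0.648% and 6.88% of all genes. The ligand gene Bmp7 was the one called without the block, with 7.74 and 7.50 in arrays labelled Gata6 null/Apc null against 4.80 and 4.81 in those labelled Apc null. A further 2 ligand genes among the 7 tested were called with the block alone: Bmp2, higher by 2.21, and Bmp8b, lower with a difference of -1.43. Among the 10 extracellular antagonists and modulators tested, Fst, which encodes the activin and BMP binding protein follistatin, was called with the block, with a difference of 2.74.

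A list named for the TGF-beta and activin receptors and Smads had no call in either fit. It also held the receptor genes Acvrl1 and Amhr2, so it was not confined to those branches. The 7 tested had differences of -0.56 to 0.24 with a median of 0.12. The 24 intracellular regulators tested, among them the Smad ubiquitin ligases Smurf1 and Smurf2, likewise had no call in either fit, with differences of -0.59 to 0.58 and a median of 0.01. Of the 5 other co-receptors tested, the decoy receptor gene Bambi was called as higher with the block. Neo1, the neogenin receptor that binds Rgmb, was chosen after its values were seen. It read 8.24 and 8.78 in arrays labelled Gata6 null/Apc null, against 8.66 and 8.96 in those labelled Apc null, and did not pass (difference -0.30, adjusted p = 1.00).

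The list of Smad9 and the inhibitory Smads had 3 genes tested, of which Smad6 and Smad7 were called as higher with the block. These 2 encode the Smads that block type I receptors. Smad7 read 7.12 and 7.18 in arrays labelled Gata6 null/Apc null, against 5.94 and 6.22 in those labelled Apc null, a difference of 1.07 (adjusted p = 0.251, and 0.0260 with the block). Smad6 read 5.49 and 6.70 in arrays labelled Gata6 null/Apc null, against 4.34 and 5.32 in those labelled Apc null, with an adjusted p of 0.692, and 0.0125 with the block. Smad9, the third receptor-regulated Smad of the BMP branch, was chosen after its values were seen. It read 5.26 and 4.79 in arrays labelled Gata6 null/Apc null, against 4.78 and 4.55 in those labelled Apc null, and did not pass (difference 0.36, adjusted p = 0.956). Among 6 DNA-binding partners and co-activators of Smads tested, Runx1 was called with the block, at 7.35 and 7.42 in arrays labelled Gata6 null/Apc null against 6.41 and 6.12 in those labelled Apc null (difference 1.12, adjusted p = 0.232, and 0.0245 with the block). Of 13 BMP response genes tested, 0 were called without the block. With it 7 were called as higher, Smad6, Smad7 and Bambi among them, where 464 of all 11874 genes tested were. The median difference of the list was 0.90, against -0.03 over all genes tested. Others of the 7 were Id3, a BMP-induced inhibitor of helix-loop-helix factors (difference 1.89, adjusted p = 0.208, and 0.00793 with the block), Dlx3 (2.03, 0.169 and 0.00748) and Tsc22d1 (0.50, 0.198 and 0.0130). Dlx3 read 6.01 and 7.05 in arrays labelled Gata6 null/Apc null, against 4.39 and 4.61 in those labelled Apc null. The Apc null values are near the level of 4.45 needed for the test.

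**Figure D4:**
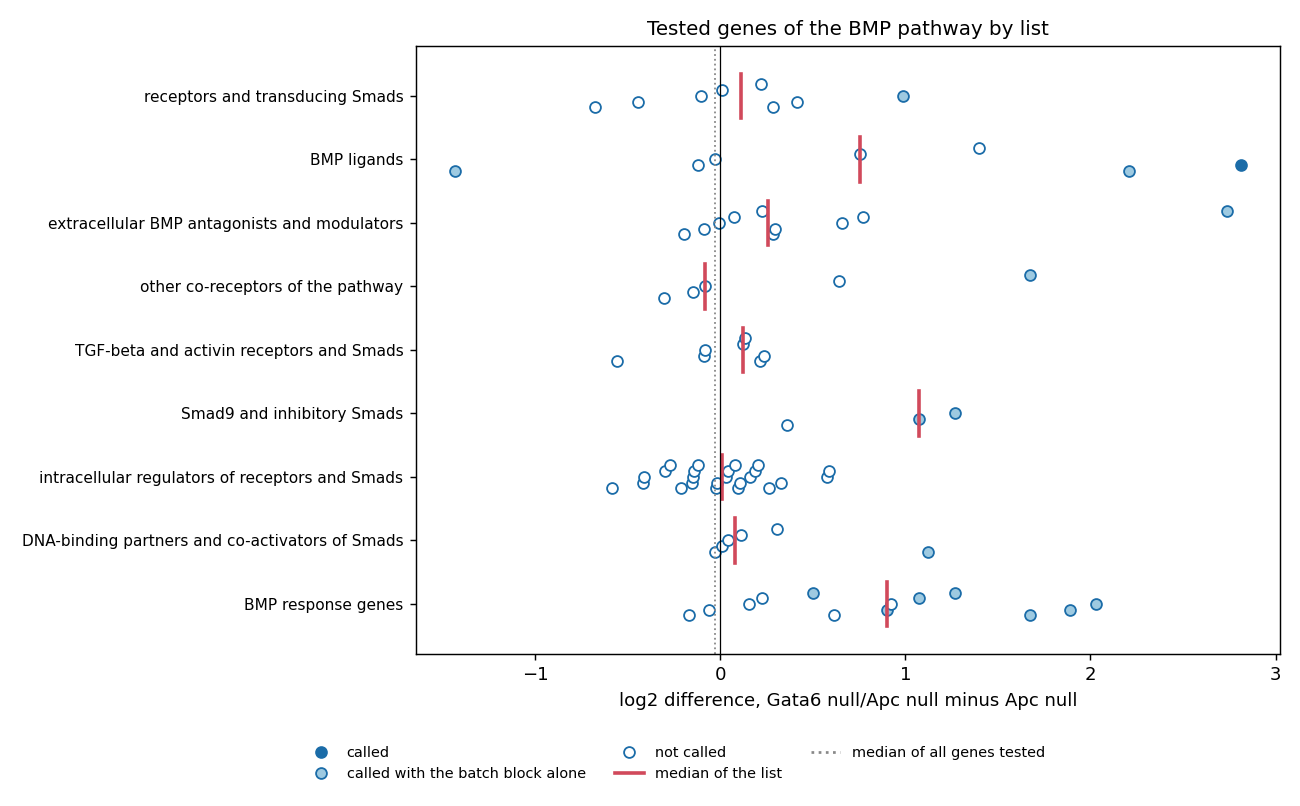
Log2 difference (Gata6 null/Apc null minus Apc null) of each tested gene of the pathway by list, with filled points for genes called without the block, pale points for genes called with the block alone, a red bar at the median of each list and a dotted line at the median of all genes tested. The receptors and transducing Smads lie between -0.68 and 0.99, while the ligand gene Bmp7 reaches 2.81 and the antagonist gene Fst 2.74.

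The genes with profiles most like Smad1 over the 4 arrays, by the root mean square distance after each profile was centred on its mean, were Ift80 (0.04 log2 units), Cdkn1c (0.05) and Fgfr2 (0.05). For Rgmb they were Slc43a2 (0.03), Tmtc3 (0.04) and Slc35d1 (0.04). With 4 arrays such a likeness is a description alone.

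The targeted gene does not check the labels. Both Gata6 probe sets were brighter in arrays labelled Gata6 null/Apc null, at 9.11 to 9.40, than in those labelled Apc null, at 8.61 to 8.89. In the fit of all probe sets, the brighter was higher by 0.64 (adjusted p = 0.737) and passed with the block (0.0410), which goes against the label. The other was higher by 0.42 and did not pass (adjusted p = 1, and 0.178 with the block). Where these probe sets lie relative to the deleted part of Gata6 is not known here, and each direction in the text rests on the labels. The tissue was checked with markers. All 10 epithelial markers were above 4.45, with a mean level of 10.07 and 9.96 in arrays labelled Gata6 null/Apc null, against 10.42 and 10.29 in those labelled Apc null. All 10 had negative differences, where 44.15% of all genes tested had positive ones. The differences ran from -1.57 to -0.01 with a median of -0.22. For 7 of the 10 the sign was the same in both batches, against 63.37% of all genes tested. Cdx2, an intestinal transcription factor, was called with the block (difference -1.57, adjusted p = 0.228, and 0.00545 with the block). Acvr1 and Rgmb ran in the same direction as these markers, and Smad1 and Bmpr2 in the other. The part of this in the results was not tested. Of the 8 fibroblast markers, 2 were above 4.45 (Pdgfrb and Dcn), and the list's mean level was 4.06 and 4.03 in arrays labelled Gata6 null/Apc null, against 4.05 and 4.05 in those labelled Apc null. Likewise 2 of 5 endothelial, 2 of 3 smooth muscle and 2 of 5 immune markers on the array were above that level. The immune list had a mean level of 4.0 and 4.4 in batches A and B of the group labelled Gata6 null/Apc null, against 4.2 and 4.5 in those labelled Apc null. Its general leukocyte marker Ptprc was under 4.45 on all 4 arrays, as were Cd3e and Itgam. The macrophage marker Cd68 read 4.94 and 7.23 in arrays labelled Gata6 null/Apc null, against 5.92 and 7.57 in those labelled Apc null. It was thus lower in the first group within each batch and higher in batch B in both groups, and its part in the results was not tested. Csf1r, another macrophage gene, read 4.58 and 4.73 in arrays labelled Gata6 null/Apc null, against 4.70 and 4.69 in those labelled Apc null.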

How the data were processed

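The data were 4 Affymetrix arrays of organoid RNA, 2 per genotype. Per the labels' protocols, 25 ng of total RNA with an integrity number of at least 9 was amplified as a whole transcriptome, which can compress differences, and 8 µg of cDNA was labelled. The authors deposited 1 log2 expression value per probe set and array, from RMA (affy package), per the submitters' processing notes, in versions not given in the sources used here. This step removes array-wide shifts and pushes dim values towards a floor. Array medians ran from 4.91 to 5.04, and precision is limited by having 4 arrays.

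After 104 control probe sets were left out, 45037 remained, of which 28898 named 1 gene. They covered 17097 genes. The brightest probe set stood for its gene, and 11874 genes at or above 4.45, the 40th percentile of all probe sets, were tested. Groups came from the genotype labels. The test was limma (version 3.58.1, under R 4.3.3; lmFit and eBayes with a mean-variance trend, genotype alone), two-sided, with Benjamini-Hochberg adjustment over all genes and a threshold of 0.05. Adjusted p-values without another name are from this fit, which has 2 residual degrees of freedom. A second fit took every probe set as a row. It is the source for the second and further probe sets of a gene and for Bmpr1a and Bmpr1b.

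The labels give a batch letter to 1 array of each genotype, which pairs the arrays by batch; the batch differences of the genotypes correlated at 0.675 across genes. The fit with the batch letter as a replicate block has 1 residual degree of freedom and is given beside the results. Both fits also moderate the variance of each gene with that of all genes tested. This adds 2.83 prior degrees of freedom with genotype alone and 4.99 with the block, more than the residual ones. The labels do not say whether replicates came from separate mice, so p-values measure this moderated spread between these samples, which may be technical. Genotype and culture cannot be told apart.

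The 10 genes and the lists were chosen with earlier results of these data known. Named genes were the members, Gata6 and Apc, up to 4 genes of each list past the threshold in either fit, and the 3 genes most like Smad1 and Rgmb. Cell type markers are named from their lists. Neo1, Smad9, Smurf1 and Smurf2 fall outside this rule and were chosen after their values were seen. Apc, at its brightest probe set, read 8.34 and 8.14 in arrays labelled Gata6 null/Apc null, against 8.35 and 8.34 in those labelled Apc null. The other Apc probe sets differed by 0.27, -0.12 and 0.12, and at the last of these the groups did not overlap. The fit was run on simulated data with 200 changed genes, where the fitted differences were required to follow the set ones. That check says nothing about the share of real differences the test misses.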

Additional observations from a re-analysis of the deposited data

How the results depend on the processing

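Each of the 8 tested genes was recomputed under 12 planned settings and 5 chosen after seeing the data, which join the replicate block with another change. Of the 136 values, 126 kept their direction and their side of the threshold. The number of genes called among the members was 0, and 0 under each planned setting except the block, where it was 1 (Smad1). It was also 1 with the block and the mean of all probe sets, with the block and every probe set as a row, and with the block and no filter; 2 (Smad1 higher, Rgmb lower) with the block and array medians subtracted; and 0 with the block and no trend. Paired by batch, the adjusted p of Smad1 ran from 4.7e-05 to 0.0628, the cause of which was not tested. With the batch B array labelled Gata6 null/Apc null left out, Acvr2a turned to 0.066 and Acvr2b to -0.11; leaving out an array put Acvr2a at -0.28 to 0.066 and Acvr2b at -0.11 to 0.54. Smad4 turned to -0.0038 with the batch A array labelled Gata6 null/Apc null left out and to -0.069 with the batch B array labelled Apc null left out, in a range of -0.069 to 0.085. All 4 values that turned were small against their intervals. The called genes of the other pathway lists numbered 1, and 12 with the block. Over all genes 77 were called, 128 with array medians subtracted, 817 with the block, and 130, 33 and 48 on leaving out batch A labelled Gata6 null/Apc null, batch A labelled Apc null and batch B labelled Apc null in turn. With the block and another change, 422 to 1242 were called. Bmpr1a and Bmpr1b were too dim for any setting to measure.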
